A study of Homo sapiens with 9 samples.

Results

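The calpains and their inhibitor calpastatin were examined in the human lung adenocarcinoma cell line LC-2/ad, which carries a CCDC6-RET fusion, and in its ponatinib-resistant derivatives. The 10 genes CAPN1, CAPN2, CAPN5, CAPN7, CAPN8, CAPN9, CAPN13, CAPN14, CAPNS1 and CAST were chosen by symbol among the 24069 rows of the deposited table, and each had a row of its own. CAPN13 was selected on its measured fall against parental cells, so its values in those contrasts are a description with no test. PR2 and PR1 are derivatives that were cultured in 200 nM ponatinib, an inhibitor of RET and other kinases, and LC2 is the parental line, for which the labels state no drug. All 3 groups stem from the same line and had 3 libraries each, lettered A, B and C. Resistance and the presence of the drug cannot be told apart in the contrasts with LC2. The labels do not call the letters separate cultures, so the p-values here cover the variation among libraries and nothing beyond it, and that variation may be technical.

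Calpains are cysteine proteases of the cytosol that calcium activates. They cut their substrates at few sites and so alter proteins rather than degrade them, and cytoskeletal and adhesion proteins are well-known targets, for which the system is studied in cell migration. The classical enzymes pair a catalytic subunit, CAPN1 or CAPN2, with the shared regulatory subunit CAPNS1, and calpastatin, the product of CAST, binds and inhibits these pairs. The remaining members have narrower or less well understood roles. CAPN8 and CAPN9 are known from gastric mucosa, and CAPN14 from the epithelium of the oesophagus.

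Values are FPKM, fragments scaled to transcript length and library size, so levels of different genes can be set side by side per length. Tests were run on log2(FPKM + 1) with limma over the 12011 rows that reached 1 FPKM in at least 3 libraries, and a row was called at a Benjamini-Hochberg adjusted p under 0.05. Of the 10 genes, 8 passed that filter and CAPN9 and CAPN14 did not. CAPN13 passed it through its 3 LC2 libraries alone. Relative depth ran from 0.759 to 1 over the 9 libraries, with the LC2 A library deepest. Epithelial markers, which fit the line's origin, were all expressed (6 of 6 at 1 FPKM or more in at least 3 libraries). Their summed level was 6798 to 8790 FPKM in PR2, 4772 to 7118 in PR1 and 5406 to 6456 in LC2. Skeletal muscle markers were near 0 (0 of 6 at that level, with MYH2, MYOD1 and MYOG listed at 0 in every library). The libraries are bulk RNA, so fewer cells expressing a gene and less RNA per cell cannot be told apart.

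The promoter windows of 2 genes are given first, because the results turn on CAPN13, which was low in both derivatives, and CAPN8, which was low in PR2. Each window runs from 250 bases before to 50 bases after an annotated start site in RefSeq on GRCh38.p14, read 5′ to 3′ on the gene's own strand. Windows were found for 9 of the 10 genes (18 windows), and CAPN5, which also fell in PR2, had none. Capitals mark matches to any of 4 motifs searched on both strands: TGANTCA for AP-1, GGAAGT for ETS, TGTTTAC for FOX and GGAATG for TEAD.
CAPN13, chr2:30807397-30807696, minus strand: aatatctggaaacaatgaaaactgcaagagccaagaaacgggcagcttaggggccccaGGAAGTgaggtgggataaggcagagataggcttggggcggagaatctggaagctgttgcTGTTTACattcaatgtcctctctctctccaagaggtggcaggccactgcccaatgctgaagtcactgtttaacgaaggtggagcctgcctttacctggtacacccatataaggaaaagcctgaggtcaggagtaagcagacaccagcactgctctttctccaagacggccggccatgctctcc
CAPN8, chr1:223665652-223665951, minus strand: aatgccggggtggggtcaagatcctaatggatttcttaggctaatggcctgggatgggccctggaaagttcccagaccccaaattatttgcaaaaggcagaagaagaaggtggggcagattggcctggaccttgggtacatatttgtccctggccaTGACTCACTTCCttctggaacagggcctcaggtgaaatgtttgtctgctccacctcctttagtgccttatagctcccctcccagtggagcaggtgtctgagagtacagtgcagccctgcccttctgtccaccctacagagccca
The CAPN13 window holds GGAAGT at 192 and TGTTTAC at 133 bases before the start site. The CAPN8 window holds TGACTCA at 94 bases before its start site and ACTTCC, the reverse complement of GGAAGT, at 88, and these matches share 1 base. Such letters are common. Of 34943 promoter windows of this length, 7.72% hold the AP-1 letters, 22.77% the ETS letters, 3.42% the FOX letters and 14.04% the TEAD letters. A window of CAPN2, the gene next to CAPN8, holds AP-1 letters as well (TGAGTCA at 178 and TGACTCA at 143 bases before a start site). A match is a description of the sequence and says nothing of binding in these cells.

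**Figure D1:**
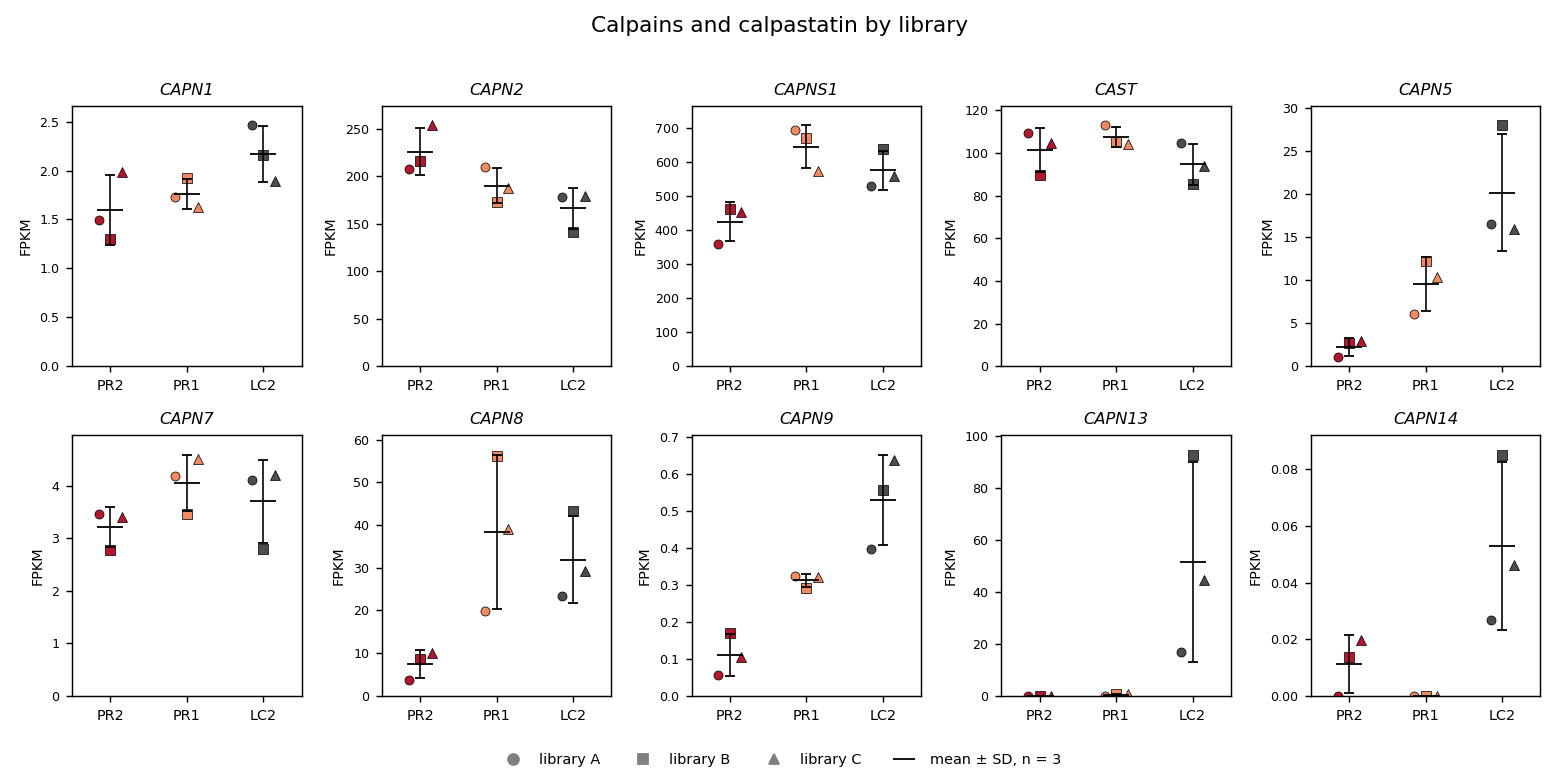
FPKM of each of the 10 genes in the 3 libraries of PR2, PR1 and LC2 (points, shaped by library letter), with the mean and SD as a dash and bar; each panel has its own linear axis. CAPN13 is near 0 in all 6 derivative libraries and 17.0 to 92.8 FPKM in LC2, while CAPN5 and CAPN8 are lowest in PR2.

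The classical system was the most abundant branch in every group. CAPNS1, CAPN2 and CAST, in this order, had the highest mean FPKM of the 10 genes in PR2, PR1 and LC2 alike. CAPNS1 was at 359, 462 and 452 FPKM in PR2, at 693, 669 and 573 in PR1 and at 528, 639 and 559 in LC2 (libraries A, B and C in this order here and below). All 3 PR2 values lay below all 6 others. The log2 difference of PR2 from PR1 was −0.61 ± 0.17 (SE, limma adjusted p = 0.029), that of PR2 from LC2 was −0.44 (adjusted p = 0.083) and that of PR1 from LC2 was 0.17 (adjusted p = 0.56). The call between the derivatives rested on few libraries. It was lost without PR2 A, PR2 B, PR2 C, PR1 A or PR1 B, at limma adjusted p of 0.0795, 0.0596, 0.0683, 0.0744 and 0.0892, and without the 3 A libraries (−0.44, 0.0969).

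CAPN2, the catalytic subunit of m-calpain, ran the other way without reaching a call. It was at 208, 216 and 254 FPKM in PR2, at 209, 173 and 187 in PR1 and at 178, 142 and 179 in LC2. The PR2 values did not overlap those of LC2, but the log2 difference of 0.44 ± 0.16 missed the threshold (limma adjusted p = 0.073). It passed after quantile normalization (0.60, adjusted p = 0.0148) and with the letters as a block (limma adjusted p = 0.0356). The differences of PR1 from LC2 (0.19, adjusted p = 0.47) and of PR2 from PR1 (0.25, adjusted p = 0.31) missed it too. CAPN1, the catalytic subunit of μ-calpain, was expressed at a far lower level, at 1.499, 1.30 and 1.99 FPKM in PR2, 1.73, 1.93 and 1.63 in PR1 and 2.46, 2.15 and 1.90 in LC2. All 3 groups overlapped, with log2 differences of −0.20 for PR1 and −0.29 for PR2 from LC2 and −0.10 between the derivatives (limma adjusted p = 0.41, 0.17 and 0.69).

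Calpastatin was close to level. CAST stood at 109.5, 89.6 and 105 FPKM in PR2, at 113, 105 and 104 in PR1 and at 105, 85.5 and 94.1 in LC2, and the groups overlapped. Its log2 difference was 0.10 for PR2 and 0.19 for PR1 from LC2, and −0.09 for PR2 from PR1, each with an SE of 0.14 (limma adjusted p = 0.68, 0.44 and 0.72). A p above the threshold does not show that the level was the same in the 3 groups.

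Ratios within a library put subunit, enzyme and inhibitor on a common footing. CAPNS1 over CAPN2 was 1.73, 2.14 and 1.78 in PR2, 3.31, 3.87 and 3.06 in PR1 and 2.97, 4.51 and 3.12 in LC2. No PR2 library reached the lowest value of PR1 or LC2. CAST over CAPN2 averaged 0.451 ± 0.066 in PR2, 0.568 ± 0.036 in PR1 and 0.572 ± 0.042 in LC2 (SD, n = 3 each). The PR2 and PR1 libraries did not overlap in it, and PR2 A at 0.527 lay just above the lowest LC2 library at 0.525. CAPN2 over CAPN1 was 144.3 ± 20.1 in PR2, 108.6 ± 16.6 in PR1 and 77.5 ± 15.1 in LC2. The 5 ratios computed had exact two-sided permutation p of 0.1 in 4 cases and 0.2 for CAPN8 over CAPN5 between PR2 and PR1 (0.125 and 0.2 after Benjamini-Hochberg adjustment), and 0.1 is the smallest p that 3 libraries against 3 allow.

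**Figure D2:**
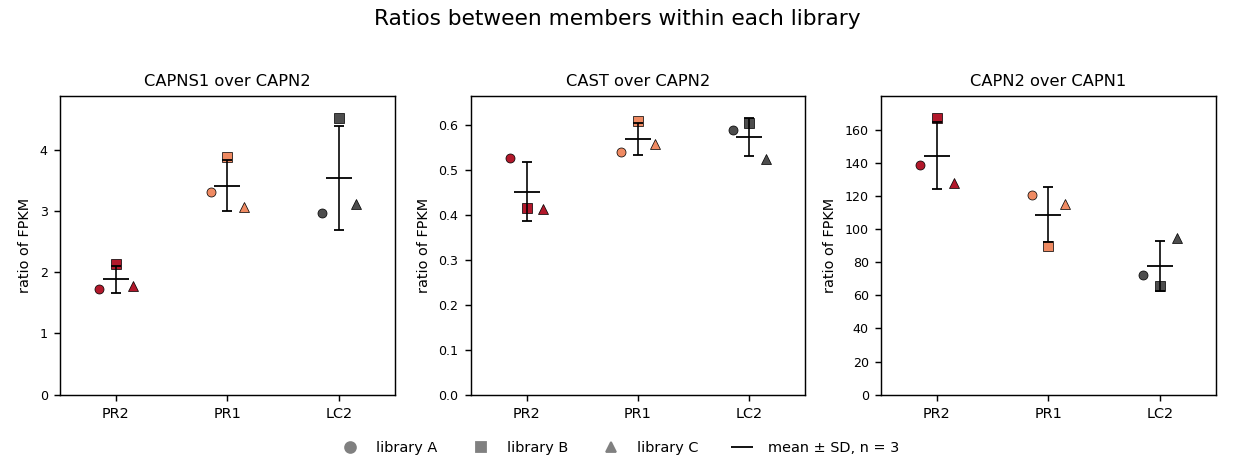
Ratio of FPKM between pairs of genes in each library of PR2, PR1 and LC2 (points, shaped by letter; dash and bar, mean and SD, n = 3). CAPNS1 over CAPN2 lies between 1.73 and 2.14 in PR2 and at 2.97 or more in the 6 other libraries.

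Among the calpains outside the classical pair, CAPN5 fell in PR2. This calpain lacks the calcium-binding domain through which the classical subunits pair, and mutations of it are known from an inherited inflammatory eye disease. It was at 1.11, 2.66 and 2.95 FPKM in PR2, at 6.06, 12.2 and 10.4 in PR1 and at 16.5, 28.0 and 16.0 in LC2. The 3 groups did not overlap, and PR1 lay between the other groups. The log2 fold change was −2.71 ± 0.32 in PR2 against LC2 (limma adjusted p = 0.00026) and −1.71 ± 0.32 in PR2 against PR1 (adjusted p = 0.0049). Both PR2 calls held under every alternative tried, with limma adjusted p of at most 0.00171 and 0.0238. PR1 differed from LC2 by −1.01 ± 0.32, which missed the threshold (limma adjusted p = 0.058) and passed it with the letters as a block (0.0061) or with only these groups in the fit (0.0499). The gene OMP is annotated inside the CAPN5 locus, and the sources used here do not say whether strand was used in counting, so reads of the overlap cannot be told apart.

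CAPN8, a calpain of the gastric mucosa in mouse and human, fell in PR2 and was not called in PR1. It was at 3.64, 8.66 and 10.03 FPKM in PR2, at 19.9, 56.1 and 39.1 in PR1 and at 23.3, 43.2 and 29.3 in LC2. Every PR2 library lay below every other library, while PR1 and LC2 overlapped. The log2 fold change was −2.01 ± 0.41 in PR2 against LC2 (limma adjusted p = 0.0063), −2.20 ± 0.41 in PR2 against PR1 (adjusted p = 0.0052) and 0.19 ± 0.41 in PR1 against LC2 (adjusted p = 0.81). Both PR2 calls held under every alternative tried, with limma adjusted p of at most 0.0318 and 0.0244. The A library was the lowest of its group in all 3 groups. CAPN8 over CAPN5 was 3.31 ± 0.08 in PR2, 3.88 ± 0.66 in PR1 and 1.60 ± 0.22 in LC2.

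CAPN9, its partner in the gastric G-calpain complex, was low everywhere and untested. It stood at 0.0573, 0.171 and 0.106 FPKM in PR2, at 0.323, 0.293 and 0.322 in PR1 and at 0.398, 0.559 and 0.637 in LC2. The groups did not overlap, in the order PR2, PR1, LC2 from low to high, and all 9 values were under 1 FPKM. CAPN7, the human homologue of the fungal PalB protease, was at 3.46, 2.77 and 3.41 FPKM in PR2, at 4.18, 3.45 and 4.51 in PR1 and at 4.11, 2.80 and 4.20 in LC2. These values overlapped in each contrast with log2 differences of −0.15 for PR2 and 0.11 for PR1 from LC2 and −0.26 for PR2 from PR1 (limma adjusted p = 0.57, 0.70 and 0.31).

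CAPN13, a little-studied member with the classical domain layout, was at 0.00992, 0.0848 and 0.0442 FPKM in PR2, at 0.0193, 0.832 and 0.582 in PR1 and at 17.0, 92.8 and 44.6 in LC2. In LC2 it came next after CAPNS1, CAPN2 and CAST by mean level, at 51.5 ± 38.4 FPKM (SD, n = 3), above CAPN8 at 31.9 ± 10.2, though these neighbours in the order overlap within their spread. In PR1 only CAPN9 and CAPN14 had lower means, and in PR2 only CAPN14 did. The parental level differed widely between libraries, and the order A, C, B from low to high held in all 3 groups. On the log2(FPKM + 1) scale the fall was −5.35 ± 0.48 in PR2 and −4.89 ± 0.48 in PR1 against LC2. With a pseudocount of 0.1 it was −8.18 in PR2 and −6.61 in PR1. These values selected the gene and carry no test.

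What the selection did not use is the difference between the derivatives. CAPN13 was lower in PR2 than in PR1 within each letter, but the log2 difference was −0.46 ± 0.48 and not past the threshold (limma adjusted p = 0.55). With a pseudocount of 0.1 it was −1.57, and the adjusted p over all alternatives ran from 0.169 to 0.775. The number of fragments behind the derivative values is not known, and may be small in PR2 and PR1 A. Scaled by relative depth, PR2 values were 1.0, 7.0 and 3.95 times the lowest value, and PR1 values 2.04, 68.34 and 59.26 times. Those of LC2 were 1834.6 to 8100.06 times the lowest value. If the lowest value is a single fragment, these multiples are numbers of fragments. Thus PR1 A was close to the PR2 libraries and PR1 B and C were not.

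CAPN14, whose product is induced by interleukin-13 in oesophageal epithelium, was hardly detected. It was at 0, 0.0138 and 0.0199 FPKM in PR2, listed at 0 in all 3 PR1 libraries, and at 0.0270, 0.0853 and 0.0464 in LC2. Every value was below 0.1 FPKM, it was not tested, and a 0 listed here may come from a failed estimate.

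Among the 7 members other than CAPN13 that were tested against LC2, PR2 had 2 calls, CAPN5 and CAPN8, both lower. PR1 had 0 calls in limma. CAPN5 alone was under 0.05 before adjustment there, and it was the 1 call with the block. For all rows tested, 13.6% were called higher and 9.83% lower in PR2 against LC2, and 7.56% higher and 7.98% lower in PR1 against LC2. These contrasts entered the selection, so nothing is read from the members' share. In PR2 against PR1, 3 of 8 members were called, all lower (CAPN5, CAPN8 and CAPNS1), where 8.92% of all rows were called lower and 11.0% higher. Without PR2 A, PR2 B, PR2 C, PR1 A or PR1 B, CAPNS1 dropped out and 2 calls remained by count.

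**Figure D3:**
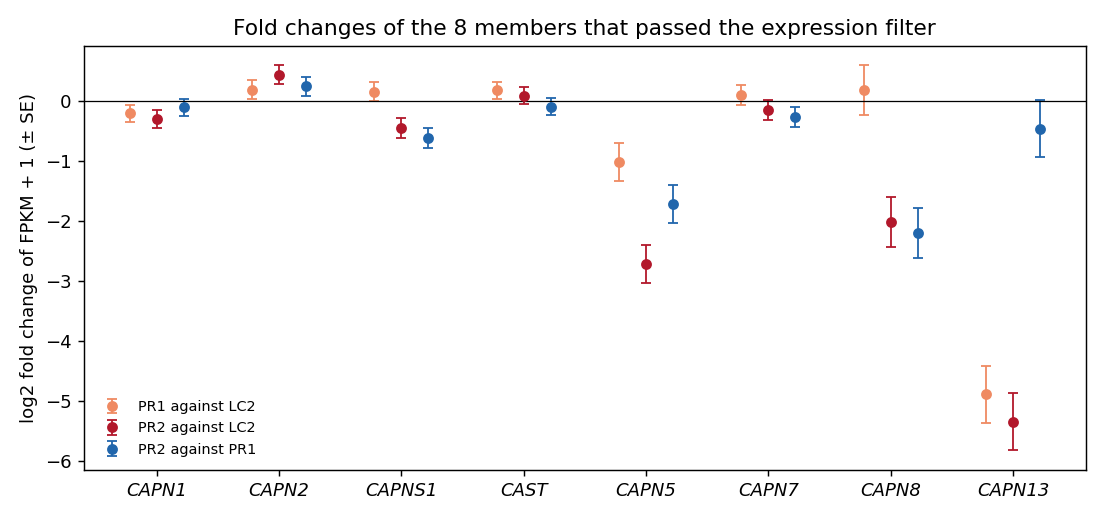
Log2 fold change of FPKM + 1 (points) with its limma SE (bars) for the 8 genes that passed the expression filter, in PR1 against LC2, PR2 against LC2 and PR2 against PR1. CAPN1, CAPN2, CAPN7 and CAST lie within 0.44 of 0 in all 3 contrasts, CAPN5 and CAPN8 reach −2.71 and −2.01 in PR2 against LC2, and CAPN13 reaches −5.35.

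Other calpain genes were read from a list of 7, of which 6 had a row of their own and 4 were tested. CAPN10 had only a combined row with GPR35, which cannot be split. CAPN6, a calpain without the catalytic cysteine that binds microtubules, was high in PR2 alone. It was at 3.52, 8.71 and 8.56 FPKM in PR2, at 0.0120, 0.0234 and 0.00628 in PR1 and at 0.212, 0.0432 and 0.0294 in LC2. The log2 difference was 2.78 against LC2 and 2.88 against PR1. CAPN6 passed the filter through its PR2 libraries alone, so a difference was bound to appear, and no test is given.

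CAPN15, the homologue of the fly small optic lobes protein, separated PR1 from the other groups. It was at 25.3, 17.8 and 15.3 FPKM in PR2, at 51.1, 35.9 and 36.4 in PR1 and at 23.7, 22.6 and 26.7 in LC2. All 3 PR1 libraries were above the other 6. PR2 was lower than PR1 by a log2 of −1.05 (limma adjusted p = 0.0066), and PR2 differed from LC2 by −0.34 (adjusted p = 0.28, and 0.0414 without the 3 A libraries). The rise of 0.72 in PR1 against LC2 (adjusted p = 0.042) was lost without any single library of PR1 or LC2, at limma adjusted p of 0.0609 to 0.127, without the 3 A libraries (0.0548) and with no filter (0.0585).

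CAPN12, which in mouse is expressed in hair follicles, was at 34.0 to 44.2 FPKM in PR2, 23.8 to 37.6 in PR1 and 24.2 to 37.7 in LC2, with no call. CAPN3, the calpain of skeletal muscle, was between 0.442 and 2.30 FPKM in the 9 libraries and had no call. CAPNS2, a retrogene related to CAPNS1, was untested. It was listed at 0 in the 3 PR2 libraries and stood at 0.0935, 0.427 and 0.122 FPKM in PR1 and at 0.187, 1.11 and 0.392 in LC2. CAPN11, a testis calpain, did not exceed 0.0114 FPKM.

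**Figure D4:**
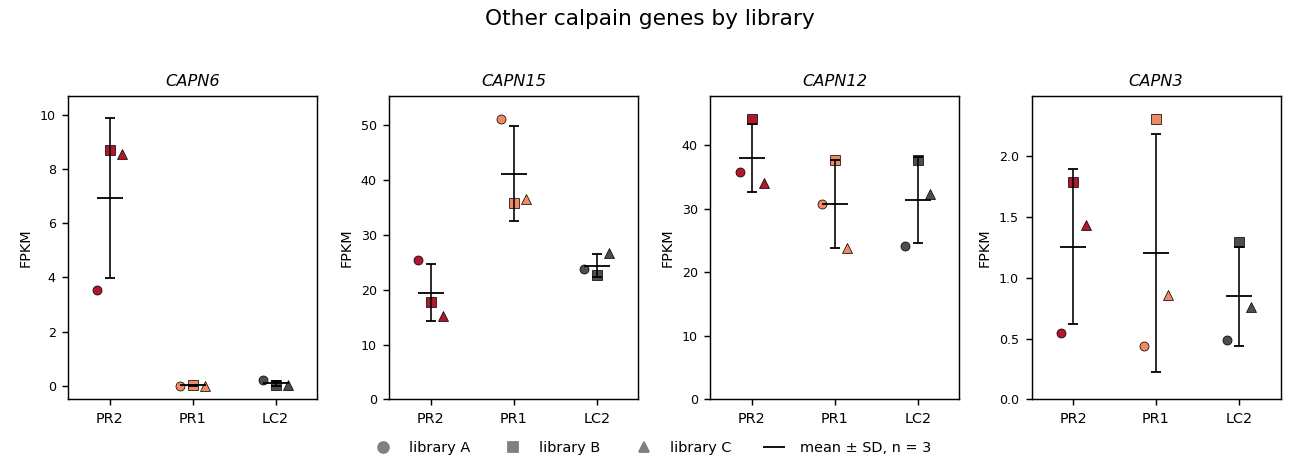
FPKM of CAPN6, CAPN15, CAPN12 and CAPN3 in each library of PR2, PR1 and LC2 (points, shaped by letter; dash and bar, mean and SD, n = 3), each panel with its own linear axis. CAPN6 reaches 3.52 to 8.71 FPKM in PR2 and at most 0.212 elsewhere, and CAPN15 is highest in PR1.

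Known calpain substrates, a list of 30 cytoskeletal, adhesion and signalling genes that were all tested, had more calls upward than downward. In PR2 against LC2, 12 were higher and 2 lower, where 13.6% of all rows were called higher and 9.83% lower, and the median log2 fold change was 0.47, against 0.03 for all rows. In PR1 against LC2, 5 were higher and 2 lower (7.56% and 7.98% of all rows), with a median of 0.27, against 0.05 for all rows. In PR2 against PR1, 6 were higher and 2 lower (11.0% and 8.92% of all rows), with a median of 0.22, against 0.00 for all rows. The count of rises in PR1 was 3 without PR1 C, LC2 B or LC2 C, and 8 without LC2 A. It was 10 without the 3 A libraries, and with the letters as a block 11 were higher and 4 lower. In PR2 against LC2 the rises were 8 without LC2 B, 9 without PR2 C or LC2 C, and 15 without LC2 A or with the block. In PR2 against PR1 they were 4 without PR2 C or PR1 B, and 9 with the block. 1 gene counted among the rises in PR2 reached 1 FPKM in 4 libraries, those of PR2 and a PR1 library. CDK5R1, also counted among them, reached it in 6 libraries, none of them PR1. The filter favoured the rise of the first gene against LC2, and the rises of both in PR2 against PR1. These are transcript levels, and cleavage of the proteins was not measured.

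Among the substrates, the integrin subunit gene ITGB1 averaged 356 ± 26.3 FPKM in PR2 and 123 ± 37.8 in LC2 (SD, n = 3 each), a log2 fold change of 1.57 (limma adjusted p = 0.00071). The scaffold gene AHNAK rose in both derivatives, to 47.4 ± 17.7 FPKM in PR2 and 38.3 ± 5.84 in PR1, against 12.3 ± 4.61 in LC2 (1.86 and 1.61, limma adjusted p = 0.0015 and 0.0053). FLNA, the actin crosslinker filamin A, rose by 1.30 in PR2 against LC2 (limma adjusted p = 0.017), a call lost without LC2 B (0.0692) or LC2 C (0.0517). The adhesion kinase gene PTK2 fell by 0.64 in PR2 against LC2 (limma adjusted p = 0.012, and 0.0504 without PR2 C), and CTNNB1, which encodes beta-catenin, fell by 1.26 (adjusted p = 0.0020). With the letters as a block CTNNB1, FLNA and ITGB1 also passed in PR1 against LC2 (limma adjusted p = 0.0498, 0.0231 and 0.033), and FLNA in PR2 against PR1 (0.00593).

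Some substrates differed between the derivatives. SRC, the founding non-receptor tyrosine kinase, was at 8.51 ± 2.01 FPKM in PR2, 2.33 ± 0.22 in PR1 and 10.1 ± 1.82 in LC2, with a log2 fold change of −1.72 in PR1 against LC2 and 1.5 in PR2 against PR1 (limma adjusted p = 0.00031 and 0.00055). The intermediate filament gene VIM was at 2.83 ± 1.22 FPKM in PR2, 32.9 ± 25.8 in PR1 and 2.89 ± 1.93 in LC2 (2.96 in PR1 against LC2 and −2.92 in PR2 against PR1, limma adjusted p = 0.0034 and 0.0031). CDK5R1, whose p35 product calpain trims to p25, was at 4.02 ± 0.22 FPKM in PR2, 0.826 ± 0.168 in PR1 and 1.48 ± 0.067 in LC2. It was higher in PR2 than in PR1 by 1.46 (limma adjusted p = 6.4e-05). CDK5R1 reached 1 FPKM in 6 libraries, those of LC2 and PR2, so the filter favoured a low level in PR1. Its fall of −0.45 in PR1 against LC2 (adjusted p = 0.038) was lost without any single library of these groups but PR1 A, at up to 0.128, and also without the 3 A libraries (0.0514), after quantile normalization (0.0943) and with only these groups in the fit (0.0787).

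The calcium-handling list, which covers the channels, pumps and sensors that set the signal calpains respond to, had 19 tested genes of 20. Of all rows, 15.5% were called in either direction in PR1 against LC2, 23.4% in PR2 against LC2 and 19.9% in PR2 against PR1. PR1 had 0 calls against LC2 in limma (5 at an unadjusted p under 0.05, and 3 higher and 1 lower with the block). PR2 had 1 lower call against LC2, STIM1, the calcium sensor of the endoplasmic reticulum, at 21.0 ± 1.84 FPKM in PR2 and 33.7 ± 3.89 in LC2 (−0.66, limma adjusted p = 0.010, and 0.0517 without PR2 C). PR2 had 1 lower call against PR1, the store-operated channel gene ORAI1 (−0.73, limma adjusted p = 0.026), which was lost without PR2 B, PR2 C, PR1 A or PR1 B, at 0.0693 to 0.107. Without PR2 A the list had 1 higher and 3 lower calls in PR2 against LC2 and 1 higher and 2 lower against PR1, and without PR2 B it had 2 lower calls against LC2, as it did without LC2 A. Without PR2 C it had no call in either contrast. Without the 3 A libraries it had 1 higher and 4 lower calls in PR2 against LC2 and 1 higher and 3 lower against PR1. With the block it had 2 higher and 3 lower calls in PR2 against LC2 and 4 lower calls in PR2 against PR1. Its median log2 fold change was 0.06 in PR2 and 0.13 in PR1 against LC2, and −0.16 in PR2 against PR1.

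Gastric and mucous genes were read beside CAPN8 and CAPN9. Of 12 listed genes only AGR2, GCNT3 and MUC1 passed the filter, and all 3 fell in PR2 against LC2, where 9.83% of all rows were called lower. The rest had no row or did not reach the filter, so these 3 are no measure of a gastric programme in these cells. AGR2, a disulfide isomerase that mucin folding needs, was at 43.7 ± 16.2 FPKM in PR2, 943 ± 176 in PR1 and 580 ± 134 in LC2 (−3.75 in PR2 against LC2 and −4.46 against PR1, limma adjusted p = 2.9e-05 and 1.6e-05). GCNT3, a mucin-type glycosyltransferase, was at 3.40 ± 1.42 FPKM in PR2, 38.1 ± 12.9 in PR1 and 94.0 ± 21.2 in LC2. Its log2 fold change was −4.47 in PR2 against LC2 and −3.15 against PR1 (limma adjusted p = 1.3e-05 and 0.00016), and −1.32 in PR1 against LC2 (0.020, lost without PR1 A at 0.0575 or LC2 B at 0.0782). With the block AGR2 was called higher in PR1 against LC2 (limma adjusted p = 0.0121). MUC1 fell by 1.12 in PR2 against LC2 (limma adjusted p = 0.016, and 0.0667 without LC2 B). Lung adenocarcinoma markers (4 of 5 expressed, NKX2-1, NAPSA, SFTPB and SLC34A2) had a summed level of 74.4 to 115 FPKM in PR2, 262 to 410 in PR1 and 252 to 367 in LC2. In PR2 against LC2 SFTPB and SLC34A2 were called lower (log2 fold change −6.08 and −3.66), while NKX2-1 (0.16) and NAPSA (−0.30) were not called. SFTPB reached 1 FPKM in 6 libraries, none of them PR2, so the filter favoured its falls in PR2 against LC2 and PR1. In PR1 against LC2 NKX2-1 (0.90) and NAPSA (1.85) were called higher, SFTPB (−3.60) lower and SLC34A2 (0.33) not called, and all 4 were called lower in PR2 against PR1. Their part in the CAPN8 and CAPN5 results was not tested.

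Cysteine cathepsins, the lysosomal counterpart of calpains, and the cystatins that inhibit cathepsins had 15 tested genes of 19. Against LC2, 2 were higher and 5 lower in PR2 (13.6% and 9.83% of all rows) and likewise 2 and 5 in PR1 (7.56% and 7.98% of all rows). Without PR2 A 4 were higher in PR2, and without PR1 A, PR1 B, LC2 B or LC2 C 1 was higher in PR1. CTSC, a dipeptidyl peptidase, was at 139 ± 1.88 FPKM in PR2, 321 ± 27.3 in PR1 and 579 ± 38.7 in LC2 (−2.05 in PR2 against LC2 and −1.20 against PR1, limma adjusted p = 1e-05 and 0.00036). CSTA, a cystatin of epithelial cells, was at 3.91 ± 0.46 FPKM in PR2, 1.33 ± 0.97 in PR1 and 47.7 ± 26.0 in LC2 (−3.12 and −4.29 against LC2, limma adjusted p = 0.0010 and 0.00030). CTSF, a lysosomal protease, fell too (−1.90 in PR2 and −2.12 in PR1, limma adjusted p = 0.011 and 0.010). The salivary cystatin gene CST4, counted among the 5 falls of each derivative, averaged 0.0525 ± 0.0558 FPKM in PR1 and 2.58 ± 1.03 in LC2. It passed the filter through its LC2 libraries alone, so a difference was bound to appear, and no test is given. The secreted inhibitor gene CST6 rose to 1491 ± 432 FPKM in PR2, against 157 ± 108 in LC2 (3.40, limma adjusted p = 0.00060), and CTSZ, a carboxypeptidase, rose by 0.86 in PR2 and 1.15 in PR1 (adjusted p = 0.0077 and 0.0025). The CST6 rise in PR1 (1.53, adjusted p = 0.049) was lost without PR1 A, PR1 B, LC2 B or LC2 C, at up to 0.167, and also at a pseudocount of 0.1, with the filter at 5 FPKM or none, after upper-quartile scaling and with only these groups in the fit (0.05 to 0.0941).

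Between the derivatives this list had 2 higher calls, CST6 (1.87, limma adjusted p = 0.018) and CTSB (1.03, adjusted p = 0.047), and 2 lower, CTSC and LGMN (−0.49, adjusted p = 0.042), where 11.0% of all rows were called higher and 8.92% lower. Without PR2 B, PR2 C, PR1 B or PR1 C no rise was left by count, and without PR2 A 4 were higher and 1 lower. With the letters as a block 4 were higher and 3 lower, CSTA among the rises (limma adjusted p = 0.0181). The LGMN call, for the asparagine-specific protease legumain, was lost without PR2 A, PR2 B, PR2 C, PR1 B or PR1 C (limma adjusted p = 0.0959 to 0.134), after quantile normalization (0.0985) and with only these groups in the fit (0.0602).

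The rows whose pattern over the 9 libraries was most like that of 3 members were listed as a description. The points share 3 groups of 3 libraries, so a large difference between groups alone gives a high correlation. For CAPN13 the highest Pearson r of log2(FPKM + 1) were those of SYTL5 (0.997), CLIC6 (0.996), the cystatin gene CST4 (0.995), BPIFB1 (0.994) and NGFR (0.994), and the lowest those of ABCC1 and LAMB3 (both −0.994) and ARHGAP10 (−0.991). CAPN8 was most like SHISA2 (0.980), RNASE1 (0.977) and SPINT1 (0.975), followed by HSPBAP1 (0.973) and ZNF385A (0.970), and least like TMEM206 (−0.993), the combined row of MAP3K14 and SPATA32 (−0.983) and CDR2L (−0.979). CAPN2 was most like RASA1 (0.961), CDR2 (0.951), TAF3 (0.944), KLHL36 and ZNF165 (both 0.937), and least like GBA2 (−0.951), SPRED1 (−0.944) and RNFT2 (−0.943). Among the members themselves, over the 9 libraries, CAPN5 ran with CAPN9 (r = 0.92) and CAPN8 (0.90) and opposite to CAPN2 (−0.84), and CAPN8 ran with CAPNS1 (0.88).

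The genes around 2 chromosomal pairs of calpain genes were compared with their members, using gene order in RefSeq. CAPN13 and CAPN14 lie near each other with GALNT14, a glycosyltransferase gene, between them. GALNT14 was at 0.831 ± 0.023 FPKM in PR2, 0.425 ± 0.047 in PR1 and 18.2 ± 2.79 in LC2. Its log2 difference from LC2 was −3.38 in PR2 and −3.74 in PR1. Like CAPN13, it passed the filter through its LC2 libraries alone, so a difference was bound to appear, and no test is given. EHD3, on the far side of CAPN14, was untested and averaged 0.217 ± 0.119 FPKM in PR2, 0.0795 ± 0.0527 in PR1 and 0.906 ± 0.036 in LC2. The flanking genes YPEL5, LCLAT1, XDH and MEMO1 had no call in any contrast (with the block XDH was lower in PR1 than in LC2, limma adjusted p = 0.0179, likewise with only those groups in the fit, 0.0167, and without PR2 A it was higher in PR2 than in PR1, 0.0469), and ALK and SRD5A2 were below the filter. LBH on the other side rose by 1.68 in PR2 against LC2 (limma adjusted p = 0.035), a call lost without PR2 B, PR2 C, LC2 B or LC2 C, at 0.0919 to 0.124, with no filter (0.0724) and with only these groups in the fit (0.0582). In PR1 against LC2 it passed with the block (0.0316), with only those groups (0.00447) and without the 3 A libraries (0.000952).

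CAPN8 and CAPN2 are neighbours with nothing annotated as protein-coding between them. In PR2 against LC2 CAPN8 was called lower, at a log2 of −2.01, and CAPN2 was not called, at 0.44. SUSD4, beyond CAPN8, was at 0.748 ± 0.138 FPKM in PR2, 0.897 ± 0.343 in PR1 and 7.07 ± 1.97 in LC2 (log2 difference −2.18 and −2.07 against LC2). It reached 1 FPKM in 4 libraries, those of LC2 and 1 of PR1. The filter was thus met through LC2 and favoured a difference from it, and no test is given. The SUSD4 mean was lower than in LC2 in both derivatives, whereas CAPN8 was called only in PR2. TP53BP2, beyond CAPN2, rose by 0.61 in PR2 against LC2 (limma adjusted p = 0.011). With the block TP53BP2 and FBXO28 passed in PR1 against LC2 (0.0417 and 0.0392). The next genes DISP1, FBXO28, DEGS1 and NVL had no call without it, and TLR5 and CCDC185 were below the filter.

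**Figure D5:**
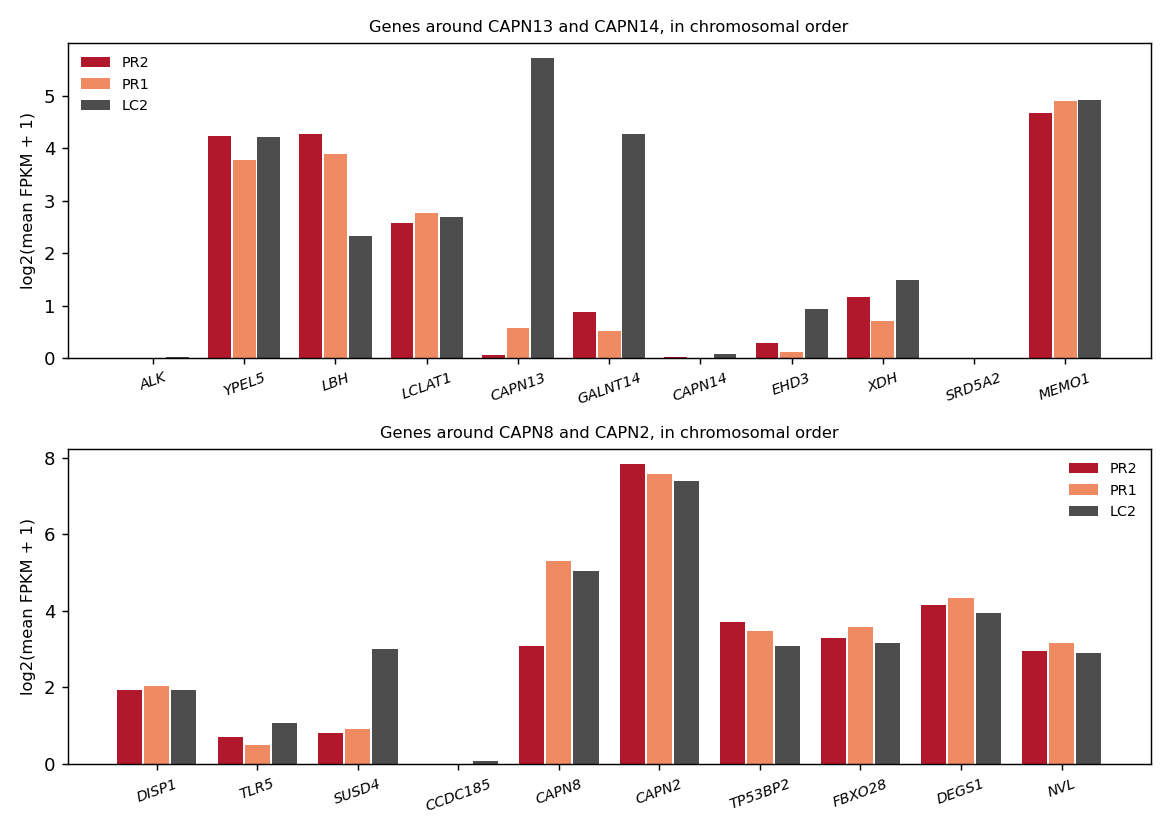
Log2 of mean FPKM + 1 in PR2, PR1 and LC2 (bars, n = 3) for the genes around CAPN13 and CAPN14 and around CAPN8 and CAPN2, in chromosomal order and not to distance. CAPN13 and GALNT14 are high in LC2 only, and CAPN2 is high in all groups beside a CAPN8 that is lower in PR2.

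Markers of other cell types stayed low. Of 9 fibroblast markers 1, COL1A1, reached 1 FPKM in at least 3 libraries, and the summed level was 10.1 to 11.5 FPKM in PR2, 6.10 to 8.49 in PR1 and 3.98 to 10.5 in LC2, with DPT listed at 0. Of 8 blood cell markers with a row 1 did, CD14, and the sum was 0.731 to 1.25 FPKM in PR2, 1.29 to 1.84 in PR1 and 3.70 to 9.24 in LC2. CD14 fell in PR2 and PR1 (log2 fold change −1.86 and −1.55), as CAPN13 did, and its part in the CAPN13 values was not tested.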

How the data were processed

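RNA sequencing of 9 libraries was read from a single deposited table. Per the labels' protocols, RNA came from a column kit and libraries from a TruSeq RNA kit. Per the submitters' processing notes, the tools were TopHat2 2.0.14, Cufflinks 2.2.1 and Cuffdiff 2.2.1 on GRCh37 (hg19). Annotation and read depth are not given in the labels or notes. The deposited values are taken as FPKM, which the authors' use of Cufflinks and column sums of 571570 to 686460 fit, although the header names no unit. Of 24069 rows, 704 combine several genes and 5378 are 0 in every library. Relative depth came from the commonest ratio between the low values of a library and those of LC2 A, and says nothing of absolute depth.

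Rows that reached 1 FPKM in at least 3 libraries (12011, 561 of them combined) were analysed as log2(FPKM + 1) with limma 3.58.1 in R 4.3.3, with 1 mean per group over all 9 libraries and an intensity trend. Tests were two-sided with Benjamini-Hochberg adjustment. A fold change on this scale understates that of low genes. The procedure was checked on simulated data with independent noise in each library, so the check did not cover variation shared by libraries of a letter. In their deviations from the group means, libraries of the same letter correlated for PR2 with PR1 (A 0.527, B 0.544, C 0.254). For PR1 with LC2 the values were 0.311, 0.477 and 0.163, and for PR2 with LC2 0.296, 0.417 and 0.014. The labels do not say what the letters stand for, and the source of this shared variation was not tested. The main fit had no term for the letter, and the letter block is given as an alternative.

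The members and lists were chosen with earlier results of these data known. Named genes were all members, all other calpains, up to 3 rises and 3 falls among the called genes of each list and comparison, and the 5 most and 3 least alike rows. Some genes named by this rule are not reported here. Up to 4 protein-coding neighbours on each side of 2 gene pairs were taken, and GALNT14 as the gene between the first pair. The alternatives were a pseudocount of 0.1, a filter at 5 FPKM or none, quantile and upper-quartile scaling, a fit without the trend or of 2 groups, the letter block, and leaving out single libraries or the 3 A libraries.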

Additional observations from a re-analysis of the deposited data

Results flagged for a closer look

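The results below were taken up because the derivatives differed from parental cells to different extents, judged by limma's test of PR2 against PR1, which is the difference of their fold changes against LC2. Among the calpain genes, PR2 was lower than PR1 for CAPN5 by a log2 fold change of −1.71, for CAPN8 by −2.20, for CAPNS1 by −0.61 and for CAPN15 by −1.05. Among the substrates, PR2 was higher than PR1 for SRC (1.5), CDK5R1 (1.46), ITGB4 (1.02) and ITGB1 (0.96), and lower for VIM (−2.92) and CTNNB1 (−0.75). For CDK5R1 the filter was met without any PR1 library, which favoured its difference. The calls for ITGB1 (without PR2 C or PR1 B, limma adjusted p = 0.0516 and 0.0505) and CTNNB1 (without PR2 A, PR2 B, PR1 B or PR1 C, 0.0714 to 0.108) were lost without single libraries, and that for CTNNB1 after quantile normalization as well (0.0686). In the mucous, calcium and cathepsin lists the differences were −4.46 for AGR2, −3.15 for GCNT3, −0.73 for ORAI1, 1.87 for CST6, 1.03 for CTSB, −1.20 for CTSC and −0.49 for LGMN. The CST6 call was lost without PR2 B, PR2 C, PR1 B or PR1 C (limma adjusted p = 0.0501 to 0.07), and the CTSB call without any of these or PR1 A (0.0786 to 0.157). The CTSB call was also lost with the filter at 5 FPKM (0.0517) or none (0.0873), after quantile (0.0578) or upper-quartile scaling (0.0633) and with only these groups in the fit (0.0851).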

How the results depend on the processing

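Of 354 values of the members' fold changes under the alternatives, 339 kept their direction and side of the threshold (the CAPN13 contrasts with LC2, which had no test, within their spread), 6 lost a call (all of them CAPNS1 in PR2 against PR1), 4 gained one (CAPN5 in PR1 against LC2 and CAPN2 in PR2 against LC2) and 2 moved (CAPN13 against LC2 at a pseudocount of 0.1). The other 3 changed sign with no call on either side: CAPN8 in PR1 against LC2 without PR1 B or LC2 A, and CAPN7 in PR1 against LC2 without LC2 B. Over all rows, 1866 were called in PR1 against LC2, 2814 in PR2 against LC2 and 2395 in PR2 against PR1. The filter at 5 FPKM, which tests fewer rows, gave 1207, 1811 and 1573, and CAPN1, CAPN3, CAPN6 and CAPN7 had no value under it. The replicate block gave 3088 calls in PR1 against LC2 and 3789 in PR2 against PR1. In PR2 against LC2 it gave 4113, and CAPN2 passed (limma adjusted p = 0.0356). Beside the calls already given with it, the block changed no other call of the genes named. Members called in PR1 against LC2 went to 1 with the replicate block and to 1 with only the groups compared. Leaving out 1 library gave 1141 (without PR1 C; 1166 without LC2 B) to 1895 calls in PR1 against LC2, 1805 (without PR2 C; 1870 without LC2 B) to 2922 in PR2 against LC2 and 1420 (without PR2 C; 1464 without PR2 B and 1592 without PR1 B) to 2227 in PR2 against PR1. Members called ranged from 0 to 0, 2 to 2 and 2 to 3. The cause of these shifts was not tested. FPKM values keep no absolute depth, so no counting interval could be given for CAPN13, CAPN9 or CAPN14 in the derivatives. Some log2 differences with no call changed sign when 1 library was left out. In PR1 against LC2 their ranges were CAPN12 −0.20 to 0.13, CAPN3 −0.15 to 0.45, CAPN7 −0.034 to 0.20, CAPN8 −0.14 to 0.58, LCLAT1 −0.049 to 0.24 and MEMO1 −0.15 to 0.061. In PR2 against LC2 their ranges were CTSB −0.61 to 0.085, DISP1 −0.11 to 0.077, FBXO28 −0.002 to 0.25, LCLAT1 −0.23 to 0.057, NVL −0.16 to 0.10, VIM −0.21 to 0.42 and YPEL5 −0.44 to 0.46. In PR2 against PR1 their ranges were AHNAK −0.029 to 0.49, CAPN3 −0.18 to 0.42, CST4 −0.072 to 0.012, CTSF −0.18 to 0.65, LBH −0.29 to 0.85 and SUSD4 −0.24 to 0.024. After quantile normalization VIM and NVL were at −0.016 and −0.11 in PR2 against LC2 and CAPN3 at −0.020 in PR2 against PR1, and after upper-quartile scaling VIM and NVL at −0.007 and −0.048. Without the 3 A libraries CTSB, YPEL5 and NVL were at 0.004, 0.27 and −0.14 in PR2 against LC2.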
